A study of Mus musculus with 6 samples.

Results

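The genes of ovarian progesterone synthesis and their regulators were examined by symbol in whole ovaries: Star, Cyp11a1, Hsd3b1, Fdx1, Fdxr, Por, Nr5a1, Nr5a2 and Lhcgr. They make 9 of the 55536 genes in the deposited tables, and all 9 were among the 17499 genes tested. The study asked whether M1, a small molecule that promotes mitochondrial fusion, alters ovarian function on the day of proestrus, the stage of the estrous cycle just before estrus. Ovaries came from 3 M1 mice and 3 Control mice, all female ICR mice of 10 weeks by the labels. M1 mice received 10 mg/kg by intraperitoneal injection at 9 h and again at 16 h in a solution of DMSO, Tween80 and PBS, and Control mice had control injections, whose content is not given in the sources used here. All ovaries were taken at 20 h, so that 11 h had passed since the morning injection and 4 h since the afternoon one. The labels describe the cycle of all 3 M1 mice as disrupted and that of all 3 Control mice as normal, so that a shift in cycle stage and other effects of M1 cannot be told apart. Each library held RNA from both ovaries of a mouse. RNA of a whole organ mixes all its cells, so that fewer cells of a type and less RNA per cell cannot be told apart.

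Steroid-producing cells of the ovary make progesterone from cholesterol. Cholesterol is carried to the inner mitochondrial membrane by StAR (Star), cut to pregnenolone there by the side-chain cleavage enzyme (Cyp11a1), and turned into progesterone by a hydroxysteroid dehydrogenase (Hsd3b1). The cleavage enzyme draws its electrons from NADPH through ferredoxin reductase (Fdxr) and ferredoxin (Fdx1), while cytochromes P450 of the endoplasmic reticulum are served by P450 oxidoreductase (Por). The luteinizing hormone receptor (Lhcgr) drives the pathway through cAMP, and the nuclear receptors SF-1 (Nr5a1) and LRH-1 (Nr5a2) bind regulatory sequences of its genes.

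The 9 genes lie on 8 chromosomes of GRCm38. By GENCODE vM21 Star lies at chr8:25806555-25815982 on the plus strand, Cyp11a1 at chr9:58006411-58027023 on the plus strand and Hsd3b1 at chr3:98852194-98859794 on the minus strand. Fdx1 lies at chr9:51943306-51963556 and Fdxr at chr11:115268024-115277050, both on the minus strand, and Por at chr5:135670033-135735326 on the plus strand. Nr5a1 lies at chr2:38692656-38714542, Nr5a2 at chr1:136842571-136960448 and Lhcgr at chr17:88716481-88791990, all on the minus strand. Exons of Cyp11a1 share 145 bases with the gene model Gm17322. The Hsd3b1 transcript is 88.0% identical over 1342 bases to that of Hsd3b6, which averaged 0.634 TPM (a level per transcript length that sums to the same total in every library). A pseudogene, Gm12431, matches Hsd3b1 at 95.8% over 167 bases and averaged 63.9 TPM, so reads in that stretch may have been divided between them, against a mean of 14695 TPM for Hsd3b1.

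Promoter windows of 300 bases, with 250 bases before and 50 from the start of the gene on, were found for 7 of the 9 genes in the RefSeq table of GRCm38.p6. Shown are those of Fdx1 and Fdxr, whose products act in the same electron chain, and of Hsd3b1 and Lhcgr. The levels of Hsd3b1 and Lhcgr had the highest correlation among pairs with a gene other than Star, Cyp11a1, Fdx1, Fdxr and Por, as described below. Each sequence runs 5′ to 3′ on the minus strand and stops before the first base that RefSeq or GENCODE gives as transcribed: chr9:51963603-51963852 (Fdx1), chr11:115277051-115277219 (Fdxr), chr3:98859795-98860044 (Hsd3b1) and chr17:88792015-88792264 (Lhcgr). Capitals mark GGGCGG or its complement CCGCCC, the core of the GC box, and TTATCT, which is AGATAA, a form of the GATA motif, on the other strand. Other forms, such as the TGATAA in the stretches of Fdx1 and Fdxr, were not searched for and are not marked.
Fdx1: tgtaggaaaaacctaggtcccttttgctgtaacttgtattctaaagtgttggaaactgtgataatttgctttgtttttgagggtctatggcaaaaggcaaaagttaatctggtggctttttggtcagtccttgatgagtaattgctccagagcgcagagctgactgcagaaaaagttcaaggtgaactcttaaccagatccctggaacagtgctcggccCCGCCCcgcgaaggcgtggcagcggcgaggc
Fdxr: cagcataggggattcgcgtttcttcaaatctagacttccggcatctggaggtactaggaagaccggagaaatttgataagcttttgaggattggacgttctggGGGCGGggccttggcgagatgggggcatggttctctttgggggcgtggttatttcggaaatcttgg
Hsd3b1: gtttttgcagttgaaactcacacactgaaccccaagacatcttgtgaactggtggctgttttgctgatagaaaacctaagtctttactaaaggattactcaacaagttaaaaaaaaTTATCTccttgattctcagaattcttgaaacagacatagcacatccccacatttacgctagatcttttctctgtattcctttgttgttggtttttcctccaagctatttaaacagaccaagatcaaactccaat
Lhcgr: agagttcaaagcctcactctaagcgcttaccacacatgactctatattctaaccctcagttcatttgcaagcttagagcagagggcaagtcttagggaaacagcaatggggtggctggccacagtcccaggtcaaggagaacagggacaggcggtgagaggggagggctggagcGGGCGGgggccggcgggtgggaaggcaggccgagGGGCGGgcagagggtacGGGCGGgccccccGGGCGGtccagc
Over the whole windows and both strands, GGGCGG was found in those of Fdx1, Fdxr, Lhcgr, Por and Cyp11a1, against 35.7% of all 32851 windows. AGATAA was found in those of Hsd3b1 and Nr5a2, against 11.2% of all windows. The NR5A half-site letters AAGGTCA (4.72% of all windows) and AAGGCCA (6.2%) and the cAMP response element TGACGTCA (1.79%) were not found in the windows of the 7 genes. A match of letters is not a binding site, and the windows of Por and Cyp11a1 lie 19112 and at least 8387 bases from the starts that GENCODE gives.

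The levels of these genes spanned a wide range, and their order was nearly the same in every ovary. Hsd3b1 was the 5th most abundant gene of the ovary by mean TPM, Cyp11a1 the 11th and Star the 26th. Fdx1 ranked 103rd, Lhcgr 145th, Fdxr 160th, Nr5a2 456th, Nr5a1 709th and Por 3046th. The 9 genes together took 2.08% to 3.14% of all TPM in M1 ovaries and 1.75% to 2.83% in Control ovaries. Hsd3b1 was above Cyp11a1, and Cyp11a1 above Star, in all 6 ovaries. Star was above the other 6 genes in all ovaries except Control mouse 1, where Lhcgr exceeded it. Nr5a2, Nr5a1 and Por stood in that order below all others in all 6 ovaries, and the levels of Fdx1, Fdxr and Lhcgr changed places between ovaries.

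Star, which limits the supply of cholesterol to the mitochondria, varied more between mice of a group than between the groups. Its level was 1106, 3365 and 1478 TPM in M1 mice 1, 2 and 3, against 598.1, 3516 and 3531 TPM in Control mice 1, 2 and 3. The groups overlapped, with M1 mouse 2 beside Control mice 2 and 3 at the top and Control mouse 1 at the bottom. In the counts the log2 fold change of M1 over Control was -0.15 (SE 0.70, 95% interval -1.78 to 1.47, edgeR's quasi-likelihood test, Benjamini-Hochberg adjusted p = 0.927). The sign of this value turned with the mice included: it was -0.86 without M1 mouse 2 and 0.19 without Control mouse 2.

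Cyp11a1, whose product makes pregnenolone, had 6145, 6305 and 3357 TPM in M1 mice 1 to 3, against 2590, 7723 and 5216 TPM in Control mice 1 to 3. Both the highest and the lowest ovary were Control ovaries. The log2 fold change was 0.20 (SE 0.46, 95% interval -0.86 to 1.26, edgeR adjusted p = 0.852). It was -0.02 without M1 mouse 2 and -0.14 without Control mouse 1.

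Hsd3b1, whose product completes progesterone, had 21408, 14219 and 13676 TPM in M1 mice 1 to 3, against 12566, 14275 and 12027 TPM in Control mice 1 to 3. In CPM (counts scaled to library size after TMM normalization), the scale of the test, it had 12455, 9494 and 8304 in M1 mice and 6623, 8069 and 6516 in Control mice. It was the only gene of the 9 whose groups did not overlap in CPM, with all M1 ovaries above, while in TPM Control mouse 2 stood above M1 mice 2 and 3. Its log2 fold change was 0.51 (SE 0.25, 95% interval -0.08 to 1.10, edgeR p = 0.0802, adjusted p = 0.345), and an exact permutation test of its mean log2 CPM gave p = 0.1, the smallest that 3 against 3 allows. DESeq2 gave an adjusted p of 0.156. Of all tested genes, 22.6% had groups that did not overlap, and 11.4% had M1 above. Hsd3b1 has the shortest summed exons of the 9 genes, 1855 bases, and its log2 fold change was 0.36 with an offset for gene length (adjusted p = 0.543) and 0.32 on the log2(TPM + 1) scale by limma (adjusted p = 0.771). Mitochondrial transcripts, which are also short, took 5.98% to 7.35% of the counts in M1 libraries and 3.82% to 5.14% in Control libraries, and their part in the value was not tested.

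**Figure D1:**
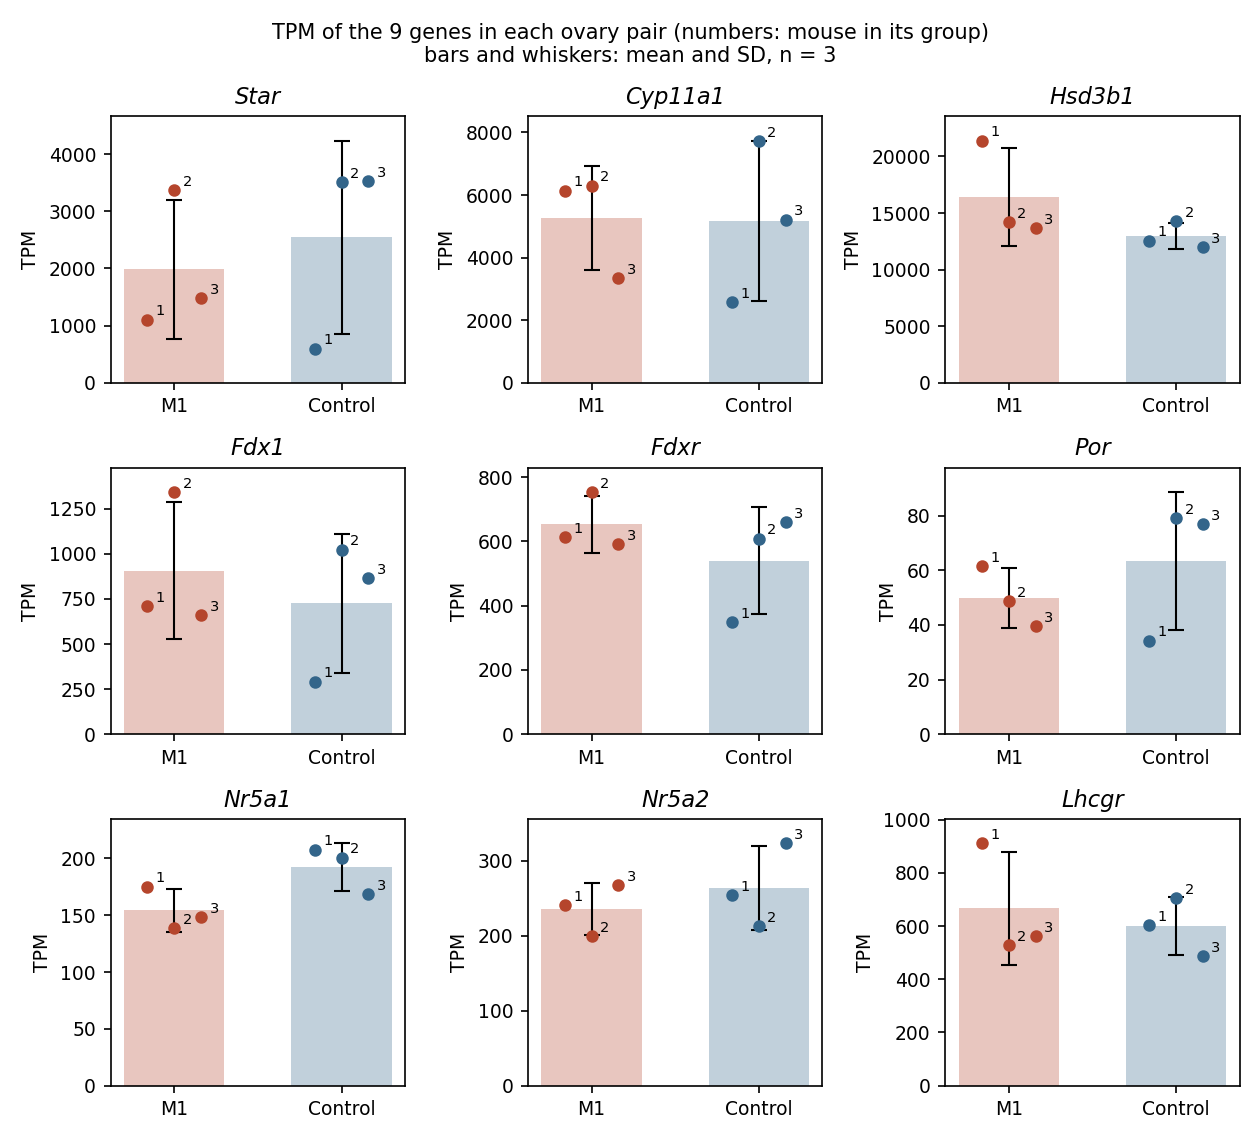
Level of each gene in TPM (y axes, each starting at 0) in the ovaries of each mouse. Points are the 3 M1 and 3 Control mice with their number, bars the mean and whiskers the SD. For Star the M1 mice lay between 1106 and 3365 TPM and the Control mice between 598.1 and 3531 TPM.

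The electron donors of the mitochondrial step showed the same low Control ovary. Fdx1, the ferredoxin that hands electrons to the cleavage enzyme, had 711.9, 1343 and 661.0 TPM in M1 mice 1 to 3, against 291.9, 1023 and 866.1 TPM in Control mice 1 to 3. M1 mouse 2 was the highest and Control mouse 1 the lowest, and the other M1 mice lay below the other Control mice. The log2 fold change was 0.51 (SE 0.50, 95% interval -0.66 to 1.68, edgeR adjusted p = 0.637), and it was 0.03 without M1 mouse 2 and 0.12 without Control mouse 1.

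Fdxr, the reductase that loads ferredoxin, had 612.6, 753.8 and 592.2 TPM in M1 mice 1 to 3, against 349.5, 608.5 and 660.7 TPM in Control mice 1 to 3. Control mouse 1 was the lowest and M1 mouse 2 the highest, and the other ovaries lay closer together. The log2 fold change was 0.46 (SE 0.28, 95% interval -0.18 to 1.10, edgeR adjusted p = 0.424), and it was 0.28 without M1 mouse 2 and 0.21 without Control mouse 1.

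Por, the electron donor of microsomal enzymes, was the least abundant of the 9 genes. It had 61.4, 48.9 and 39.6 TPM in M1 mice 1 to 3, against 34.3, 79.1 and 76.8 TPM in Control mice 1 to 3. Control mouse 1 lay below all M1 mice and the other Control mice above them. The log2 fold change was -0.18 (SE 0.33, 95% interval -0.93 to 0.58, edgeR adjusted p = 0.815). Without Control mouse 1 it was -0.49 (edgeR adjusted p = 0.135), and without Control mouse 2 it was 0.05.

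The NR5A receptors varied least between mice. Nr5a1 (SF-1), found in all steroid-producing cells of the gonad, had 175, 139 and 149 TPM in M1 mice 1 to 3, against 208, 201 and 168 TPM in Control mice 1 to 3. The groups overlapped only in M1 mouse 1 and Control mouse 3, and the log2 fold change was -0.14 (SE 0.13, 95% interval -0.45 to 0.17, edgeR adjusted p = 0.621). Nr5a2 (LRH-1), which in the mouse ovary is expressed in granulosa and luteal cells, had 241, 199 and 268 TPM in M1 mice 1 to 3, against 254, 213 and 323 TPM in Control mice 1 to 3. Its log2 fold change was 0.02 (SE 0.18, 95% interval -0.39 to 0.44, edgeR adjusted p = 0.960), and on the log2(TPM + 1) scale it was -0.15, where the median of all genes was -0.16.

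Lhcgr, the receptor through which the luteinizing hormone surge acts on the follicle, had 911, 527 and 562 TPM in M1 mice 1 to 3, against 604, 706 and 488 TPM in Control mice 1 to 3. M1 mouse 1 stood above all others, as it did for Hsd3b1. The log2 fold change was 0.32 (SE 0.24, 95% interval -0.25 to 0.89, edgeR adjusted p = 0.538), and 0.09 without M1 mouse 1. With the offset for gene length it was 0.45 (edgeR adjusted p = 0.4165), and on the log2(TPM + 1) scale 0.13 by limma (adjusted p = 0.812).

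Over the whole table calls followed the study's thresholds, an adjusted p under 0.05 together with a fold change above 1.5, and by edgeR 0 of the 9 genes were called, against 0.00571% of all tested genes (1 of 17499). At an unadjusted p under 0.05 edgeR found 0 of the 9 genes, against 16.9% of all genes. At that level DESeq2 found 1, Hsd3b1 (17.2% of all genes), limma-voom 1, Hsd3b1 (16.7%), edgeR without a filter 2, Hsd3b1 and Fdxr (11%), and edgeR without Control mouse 1 found 1, Por (26.9%). DESeq2 called 0 of the 9 genes, against 2.55% of the 15883 genes it tested (405 genes). Without Control mouse 1 edgeR called 782 genes, 4.35% of those tested, and again 0 of the 9. It called 0 genes (0%) without M1 mouse 1, without M1 mouse 2 or without Control mouse 3, and 1 gene, not a member, without M1 mouse 3 (0.00553%) or without Control mouse 2 (0.00555%). The median log2 fold change of the 9 genes was 0.20, beside -0.01 for all tested genes, and 6 of the 9 values were above 0. The 95% intervals left room for a fold of M1 over Control between 0.291 and 2.78 for Star and between 0.552 and 2.39 for Cyp11a1, but only between 0.732 and 1.12 for Nr5a1.

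**Figure D2:**
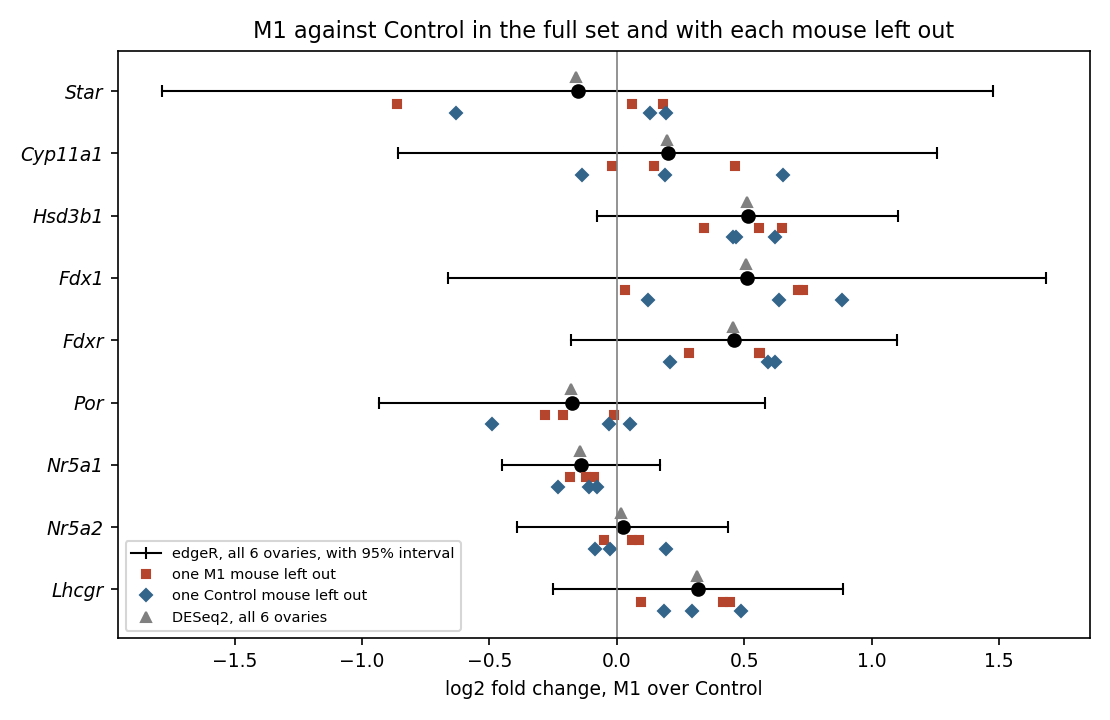
Log2 fold change of M1 over Control (x axis) for the 9 genes. Black circles and lines are the edgeR value and its 95% interval over all 6 ovaries, grey triangles DESeq2, red squares the edgeR value with an M1 mouse left out and blue diamonds with a Control mouse left out. All intervals cross 0, and the values of Star lie between -0.86 and 0.19 as mice are left out.

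The 9 genes also differed in how much they varied between mice of the same group. The SD of log2 CPM within groups was 1.26 for Star, 0.862 for Fdx1, 0.714 for Cyp11a1, 0.554 for Por and 0.43 for Fdxr. It was 0.327 for Lhcgr, 0.243 for Hsd3b1, 0.224 for Nr5a2 and 0.136 for Nr5a1. The median of the 2263 genes with a mean of at least 100 CPM was 0.184, and Star was more variable than 99.4% of those genes, Fdx1 than 98.3% and Cyp11a1 than 96.9%. Between the highest and the lowest of the 6 ovaries Star differed 7.13-fold and Fdx1 5.83-fold, while Hsd3b1 differed 1.91-fold and Nr5a1 1.26-fold. The counts behind these values ran between 573 for Por and 191762 for Hsd3b1 in a library, where the counting error is 4.18% and 0.228%, so counting error is a small part of this spread.

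Control mouse 1 was the lowest ovary for Star, Cyp11a1, Fdx1, Fdxr and Por. These 5 genes, grouped after their values were seen, formed 10 pairs that all correlated positively over the 6 ovaries in log2 CPM, with Pearson's r between 0.64 and 0.96. Spearman's rho for the same pairs ran between -0.03 and 0.94. For Star and Fdx1 r was 0.91 (exact permutation p = 0.0042, adjusted over 36 pairs 0.15) and rho 0.94 (exact permutation p = 0.0167, adjusted 0.529), and r was 0.75 without M1 mouse 1 and Control mouse 1, the 2 ovaries farthest from the median of Star. For Cyp11a1 and Fdx1, enzyme and electron donor, r was 0.89 (exact permutation p = 0.0111, adjusted 0.183) and rho 0.89 (exact permutation p = 0.0333, adjusted 0.529), and r was 0.62 without M1 mouse 3 and Control mouse 1.

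Some of the other pairs held without the farthest ovaries and some did not. Without M1 mouse 1 and Control mouse 1 r was 0.88 for Star and Cyp11a1, against 0.78 over all ovaries, and 0.79 for Star and Por, against 0.79. Fdx1 and Fdxr had the highest r, 0.96 (exact permutation p = 0.0306, adjusted 0.183), with a rho of 0.49 (exact permutation p = 0.356, adjusted 0.895), and without M1 mouse 2 and Control mouse 1 r was -0.92, so the relation rests on those 2 ovaries. For Cyp11a1 and Por r was 0.87 (exact permutation p = 0.0208, adjusted 0.183) and rho 0.77 (exact permutation p = 0.103, adjusted 0.529), and r was -0.18 without M1 mouse 3 and Control mouse 1, so this relation also rests on the 2 ovaries left out. Of the 10 pairs, 7 kept a positive r without the 2 ovaries farthest from the median and 3 turned negative. When each group's mean was removed first, r ran between 0.80 and 0.99 over the 10 pairs. These values include Control mouse 1, the lowest ovary for each of these genes, and were not computed without it.

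Hsd3b1 did not follow Star, which supplies the pathway. Its r with Star was 0.01 (exact permutation p = 0.969, adjusted 0.975) and rho 0.09 (exact permutation p = 0.919, adjusted 1.0). With Lhcgr it had an r of 0.90 (exact permutation p = 0.0194, adjusted 0.183) and a rho of 0.83 (exact permutation p = 0.0583, adjusted 0.529), although r was 0.45 without M1 mouse 1 and Control mouse 3. The NR5A receptors ran opposite to each other in CPM, with an r of -0.79 (exact permutation p = 0.0792, adjusted 0.285) and a rho of -0.77 (exact permutation p = 0.103, adjusted 0.529), but in TPM r was 0.07. In the other 24 pairs r lay between -0.58 and 0.55. Of all 36 pairs, 6 had an unadjusted p under 0.05 and 0 passed after adjustment, where the smallest adjusted p was 0.15. Each group of 3 holds too few ovaries for a correlation within it.

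**Figure D3:**
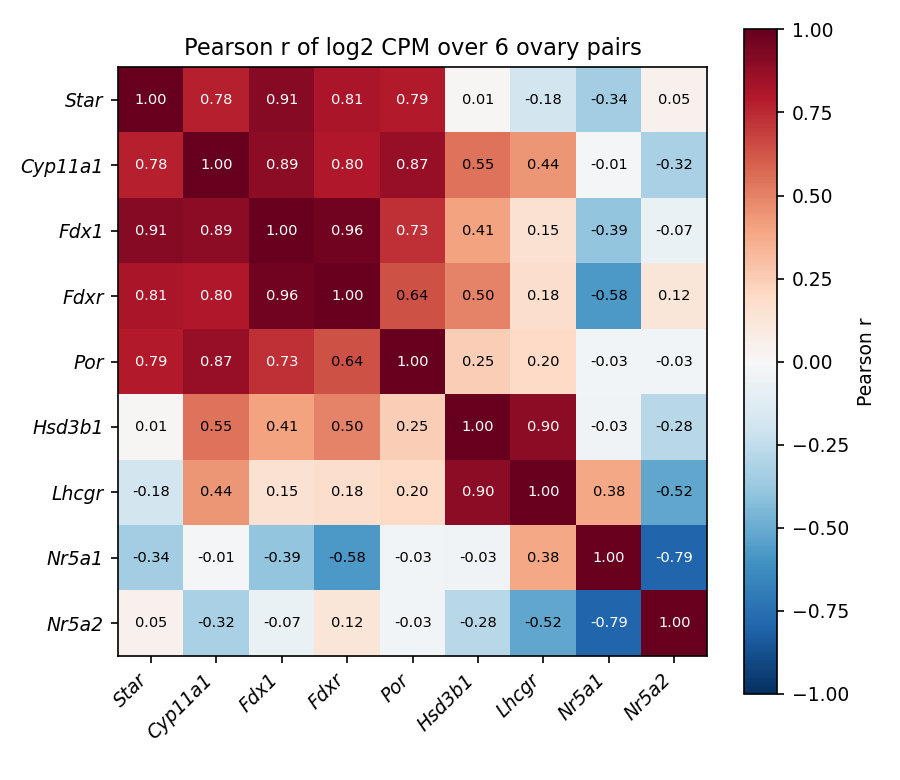
Pearson's r of log2 CPM over the 6 ovaries for each pair of the 9 genes (color scale between -1 and 1). The upper left block holds Star, Cyp11a1, Fdx1, Fdxr and Por, with r between 0.64 and 0.96, and Hsd3b1 with Lhcgr has 0.90.

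Summed markers of ovarian cell types also differed between ovaries. The summed TPM of 9 luteal markers was 7541, 18522 and 4299 in M1 mice 1 to 3, against 3057, 15046 and 8098 in Control mice 1 to 3, so that Control mouse 1 was the lowest there too. Akr1c18, a luteal enzyme that inactivates progesterone and the most abundant of these markers by the mean of the 6 ovaries, though below Sfrp4 in M1 mice 1 and 3 and Control mouse 1, had 1040, 13670 and 959.0 TPM in M1 mice 1 to 3, against 8.97, 6510 and 3191 TPM in Control mice 1 to 3. In M1 mouse 2 the sum rests on Akr1c18, which was left out in turn after the values were seen. The other 8 luteal markers summed to 6501, 4852 and 3340 TPM in M1 mice 1 to 3, against 3049, 8536 and 4907 TPM in Control mice 1 to 3. In this sum M1 mouse 2 was 4th of the 6 ovaries and Control mouse 1 still the lowest, but the single markers differed. Ephx2 (981 TPM) and Parm1 (15.3 TPM) were lowest in Control mouse 1, while Cldn1 was highest there (34.7 TPM). Sfrp4 and Ptgfr were lowest in M1 mouse 3, and Prlr and Mt2 in Control mouse 3. The 10 granulosa markers summed to 6538, 2788 and 5499 TPM in M1 mice 1 to 3, against 6823, 4327 and 4879 TPM in Control mice 1 to 3, and the 10 oocyte markers were highest in Control mouse 1, with 1186 TPM. None of the 9 luteal and 10 granulosa markers was at 0 in all libraries. The 9 theca and interstitial markers summed to 526.0 to 1072 TPM in M1 ovaries and 536.7 to 1342 TPM in Control ovaries. The TPM sums of oocytes, endothelium, macrophages, oviduct epithelium, erythroid cells and adrenal cortex also overlapped between the groups. Those of the remaining lists did not. The 7 markers of fibroblasts and stroma summed to 1038 to 1091 TPM in M1 ovaries and 1224 to 1597 TPM in Control ovaries. The 7 of smooth muscle and pericytes summed to 595.3 to 817.9 TPM in M1 ovaries and 822.4 to 1098 TPM in Control ovaries, and the 7 of adipocytes to 5.33 to 12.3 TPM in M1 ovaries and 14.8 to 22.5 TPM in Control ovaries. Over all genes TPM also ran lower in M1, with a median of -0.16 on the log2(TPM + 1) scale. In CPM 2 of the 7 fibroblast markers had M1 below Control without overlap and 1 had M1 above. The groups overlapped for all 7 smooth muscle markers, and M1 lay below for 1 of the 2 adipocyte markers tested. Of all tested genes 11.2% had M1 below and 11.4% M1 above. Of the 10 oocyte markers 9 had a log2 fold change below 0, beside a median of -0.01 for all tested genes. At an unadjusted edgeR p under 0.05, 5 were lower, against 9.17% of all genes. The number of lower oocyte markers was 1 without M1 mouse 2 (1056 of all 18131 genes) and 2 without Control mouse 1 (2633 of 17994). It was 3 without M1 mouse 1 (1246 of 18009) or Control mouse 2 (926 of 18014). It was 6 without M1 mouse 3 (946 of 18096) or Control mouse 3 (888 of 18077). The part of these cell types in the levels of the 9 genes and of the pathway genes described below was not tested. The 5 markers of adrenal cortex, another tissue that makes steroids, summed to at most 3.42 TPM in M1 ovaries and 4.36 TPM in Control ovaries, and Cyp11b2 was at 0 counts in all 6 libraries.

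**Figure D4:**
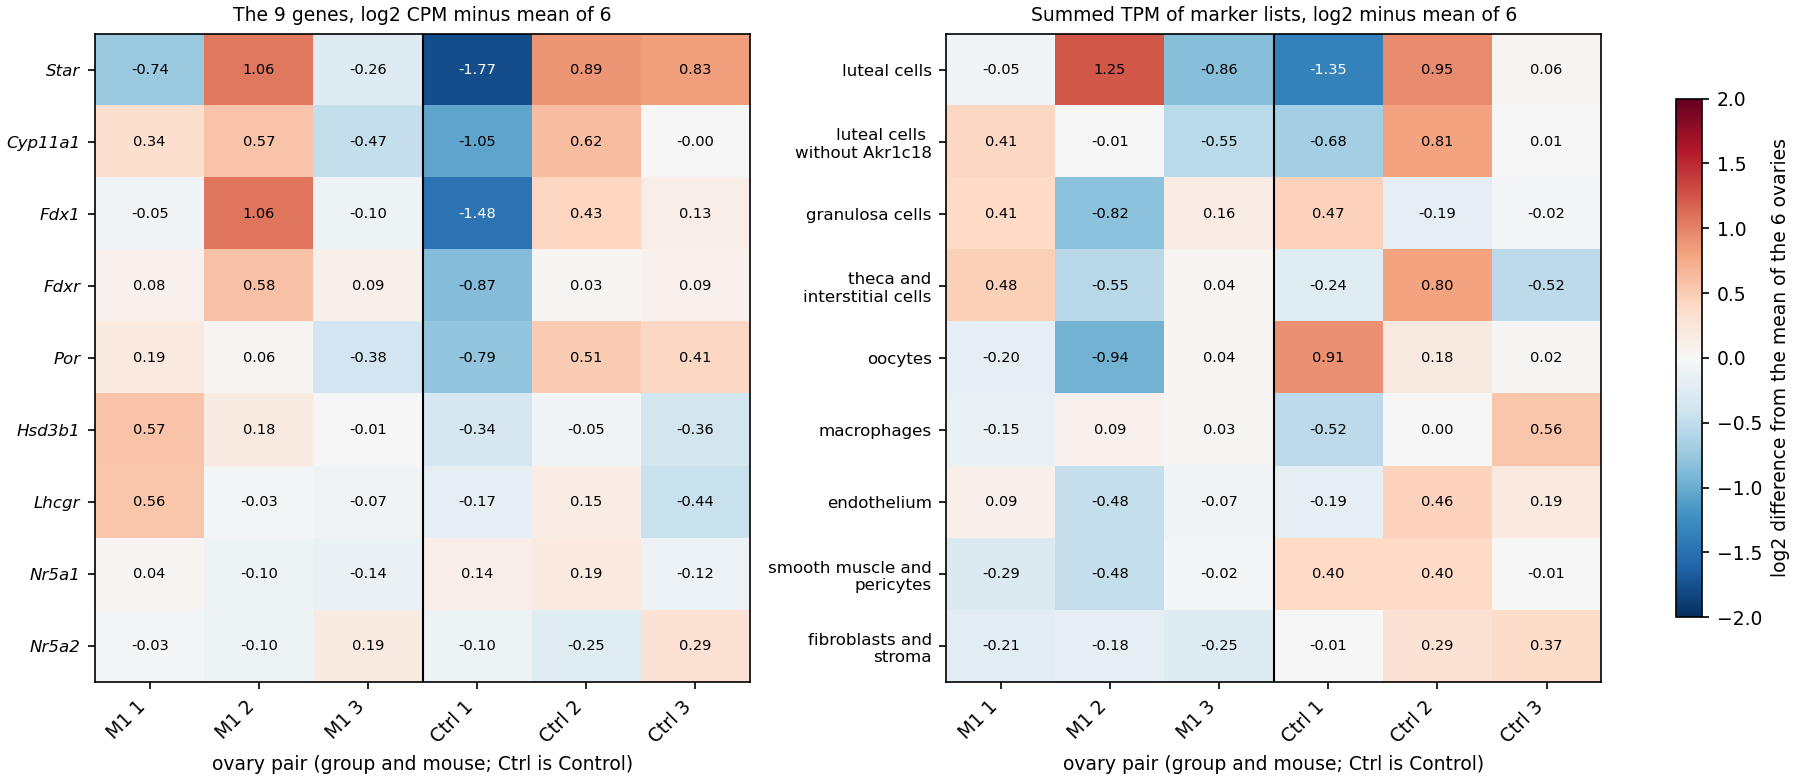
Log2 difference of each ovary pair from the mean of all 6, for the 9 genes in CPM (left) and for the summed TPM of 8 lists of cell type markers, the luteal list also without Akr1c18 (right), with M1 mice 1 to 3 left of the line and Control mice 1 to 3 (Ctrl) right of it. For the luteal markers M1 mouse 2 has 1.25 with Akr1c18 and -0.01 without it, and Control mouse 1 has -1.35 with it and -0.68 without it, beside -1.77 for Star and -1.48 for Fdx1.

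Ratios of TPM set neighboring steps against each other within an ovary, and none of the 4 ratios separated the groups. The ratio of Cyp11a1 to Star was 5.56, 1.87 and 2.27 in M1 mice 1 to 3, against 4.33, 2.20 and 1.48 in Control mice 1 to 3. The log2 ratio was 1.52 ± 0.84 in M1 mice and 1.27 ± 0.78 in Control mice (SD, n = 3 each; exact permutation p = 0.6, adjusted over 4 ratios 0.9). Hsd3b1 exceeded Cyp11a1 by 3.48, 2.26 and 4.07 times in M1 mice 1 to 3, against 4.85, 1.85 and 2.31 times in Control mice 1 to 3 (exact permutation p = 0.8, adjusted 0.9). The ratio of Fdxr to Fdx1 lay between 0.561 and 0.896 in M1 mice and between 0.595 and 1.20 in Control mice (exact permutation p = 0.9, adjusted 0.9). The ratio of Nr5a2 to Nr5a1 lay between 1.38 and 1.80 in M1 mice and between 1.06 and 1.92 in Control mice (exact permutation p = 0.6, adjusted 0.9), so that Nr5a2 was the more abundant receptor in every ovary.

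The genes whose log2 CPM was most alike each of the 9 were sought among 10750 genes with a mean of at least 10 CPM. For Star they were Pdcd1 (r = 0.99), Strbp (0.99) and Stat3 (0.99), for Cyp11a1 Dnajb12 (0.99), Tnfaip8 (0.99) and Efhd1 (0.99), and for Hsd3b1 Mgll (0.98), Cmpk1 (0.98) and Ppip5k1 (0.98). For Fdx1 they were Emc3 (1.00), Baiap2 (0.99) and Mycbp (0.99), and for Fdxr Mllt6, Aldh1l1 and Rab27a (0.99 to 1.00). For Lhcgr they were Hist1h1c (0.97), Dnajb13 (0.96) and Serinc1 (0.96). With 6 ovaries such values are frequent: 336 genes had an r above 0.9 with Star, 253 with Fdx1 and 12 with Nr5a2. Among the most alike genes of Star, Fdx1 was 298th and Cyp11a1 1015th, and among those of Lhcgr, Hsd3b1 was 43rd.

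The genes around the pathway were described by 5 lists, and edgeR called 0 of their 103 tested genes, against 0.00571% of all genes. At an unadjusted p under 0.05 edgeR found 6 of them higher and 10 lower in M1, against 7.7% of all genes higher and 9.17% lower. With a mouse left out, 3 to 10 were higher and 3 to 20 lower, the fewest without Control mouse 3 and the most without Control mouse 1. The counts over all genes were also fewest and most in those fits. Without Control mouse 3, 800 of 18077 genes were higher and 888 lower, and without Control mouse 1, 2215 of 17994 were higher and 2633 lower. Of 12 tested redox partners of cytochromes P450, 1 was higher and 0 lower at that level, with a list median of 0.18. That gene was Cyb5a, the cytochrome b5 that aids the lyase step of androgen synthesis, with 554.0, 412.6 and 653.3 TPM in M1 mice 1 to 3, against 448.2, 297.6 and 277.7 TPM in Control mice 1 to 3. In CPM its M1 ovaries lay above its Control ovaries, although M1 mouse 2 lay below Control mouse 1 in TPM. Its log2 fold change was 0.84 (SE 0.22, edgeR adjusted p = 0.201), and DESeq2 called it (adjusted p = 0.0167).

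Of 33 transcription factors of steroidogenic genes, 2 were higher and 3 lower at an unadjusted edgeR p under 0.05, with a median log2 fold change of -0.01. Gata6, a factor that acts on promoters of steroidogenic genes in granulosa and theca cells, had 84.4, 63.8 and 80.5 TPM in M1 mice 1 to 3, against 60.6, 44.0 and 57.3 TPM in Control mice 1 to 3. The groups did not overlap, and the log2 fold change was 0.68 (SE 0.14, edgeR adjusted p = 0.195, DESeq2 adjusted p = 0.00969). Crem had 0.69 (edgeR adjusted p = 0.243), Esr1 -0.90 (0.248) and Sp1 -0.48 (0.232).

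The signalling list held 30 tested genes of receptors and of signalling through cAMP. At an unadjusted edgeR p under 0.05, 2 were higher and 6 lower in M1, against 7.7% of all genes higher and 9.17% lower. The count of lower genes was 10 without Control mouse 1, 5 without M1 mouse 1 and 4 without M1 mouse 2. It was 3 without M1 mouse 3 and 2 without Control mouse 2 or Control mouse 3. Over all genes 2633 of 17994 were lower without Control mouse 1 and 1246 of 18009 without M1 mouse 1. In the other fits the all-gene count ran between 888 of 18077 without Control mouse 3 and 1056 of 18131 without M1 mouse 2. Log2 fold changes were below 0 for 23 of the 30 listed genes, with a median of -0.22, beside -0.01 for all tested genes. This list was not fitted with the offset for gene length, and the part of gene length in its values was not tested. Among the 9 genes that offset lowered the value of Hsd3b1 (1855 bases) from 0.51 to 0.36 and raised that of Lhcgr (7645 bases) from 0.32 to 0.45. Adcy5, an adenylyl cyclase that makes cAMP, had 9.11, 6.47 and 7.73 TPM in M1 mice 1 to 3, against 15.5, 19.2 and 17.2 TPM in Control mice 1 to 3. No M1 ovary reached the lowest Control ovary, and the log2 fold change was -0.99 (SE 0.16, edgeR adjusted p = 0.195, DESeq2 adjusted p = 0.000531). Prlr, the prolactin receptor, which signals through JAK and STAT proteins rather than cAMP, was among the higher genes at 0.60 (SE 0.21, edgeR adjusted p = 0.244), and its groups did not overlap in CPM. Arrb1, an arrestin that desensitizes receptors, had -0.91 (edgeR adjusted p = 0.197, DESeq2 0.0211), and Adcy9 had -1.50 (edgeR adjusted p = 0.233, DESeq2 0.0311). These 5 genes, Cyb5a, Gata6, Adcy5, Arrb1 and Adcy9, were the ones DESeq2 called among 102 genes of the lists that it tested, 4.9% against 2.55% of all genes. Without Control mouse 1 edgeR called the same 5 and also Adcy3 and Esr1, 7 of 104 or 6.73%, against 4.35% of all genes in that fit.

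The remaining lists hold enzymes that make, convert or inactivate steroids, and genes of cholesterol transfer to mitochondria. Of 14 tested steroidogenic enzymes other than the members, 0 were higher and 1 was lower at an unadjusted edgeR p under 0.05, with a median log2 fold change of -0.04. The lower gene was Hsd11b2, which inactivates glucocorticoids, at -0.93 (SE 0.32, edgeR adjusted p = 0.243). Of 14 tested genes of cholesterol transfer to mitochondria, 1 was higher and 0 were lower, with a median of 0.04. That gene was Vdac2, a channel of the outer mitochondrial membrane, at 0.31 (SE 0.12, edgeR adjusted p = 0.257).

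**Figure D5:**
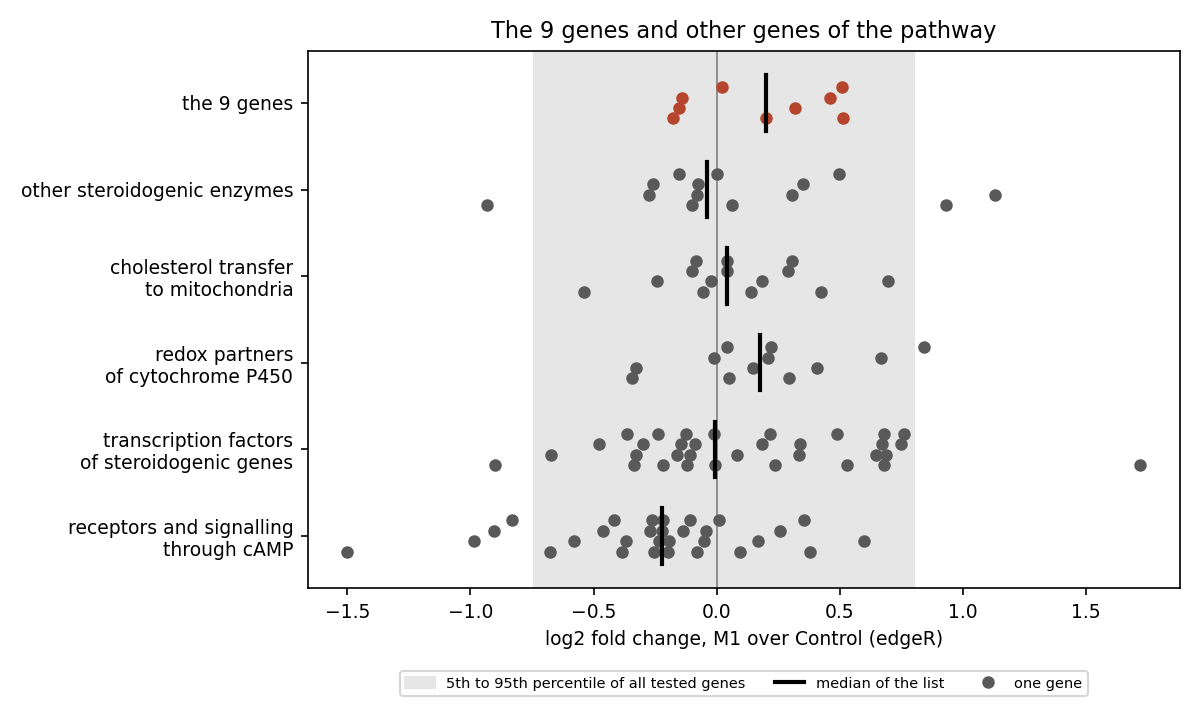
Log2 fold change of M1 over Control by edgeR (x axis) for the 9 genes (red) and for the tested genes of 5 lists of the pathway (grey points). Vertical bars are list medians and the shaded band holds the middle of all tested genes, between -0.74 and 0.80. All 9 genes lie inside the band, and the medians run between -0.22 for the list of receptors and cAMP signalling and 0.20 for the 9 genes.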

How the data were processed

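Ovarian RNA of 3 M1 and 3 Control mice was sequenced, a library for each mouse, and groups follow the labels. The submitters' processing notes name FastQC, MultiQC, Trimmomatic 0.38, HISAT2 2.1.0 and featureCounts 2.0.0, with GRCm38 as the genome. The counts deposited by the authors are whole numbers of assigned reads per gene, and they summed to 12536440 to 18651402 per library. The deposited TPM were made by the authors from these counts and gene lengths and sum to the same total in every library, and the FPKM deposited by the authors are scaled by length and assigned reads. Counts were used for tests and TPM for levels and ratios. Ratios were also taken from FPKM, where they equal those of TPM by construction.

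The main test was that of edgeR 4.0.16 in R 4.3.3 (quasi-likelihood test, TMM, filterByExpr with a minimum count of 10 and a minimum total of 15), and Benjamini-Hochberg adjustment ran over all tested genes. Calls needed a fold change above 1.5 and an adjusted p under 0.05. Intervals are 95% intervals of the fitted log2 fold change. Log2 CPM used a prior count of 2. DESeq2 1.42.0 on all genes with a count, the study's tool, was an alternative, as were limma-voom (limma 3.58.1), RLE size factors, other filters, a replicate block, an offset for gene length (lowess span 0.5), limma on log2(TPM + 1) and log2(TPM + 0.1), and leaving out each mouse. The edgeR fit and the length offset were tested on simulated data. Correlations and ratios were computed in Python 3.11.15 with scipy 1.17.1. Near copies were sought with blastn 2.17.0 among GENCODE vM21 transcripts.

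The members and the gene lists were chosen with earlier results of these data known. Named genes are all 9 members, the up to 5 genes with the smallest p in each pathway list and the up to 2 most abundant of each marker list, besides called genes and the 3 genes most like each member. Not every gene the rule allows is named. Adcy3, the near copies and the luteal markers Ephx2, Parm1, Cldn1, Ptgfr and Mt2 were named after their values were seen.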

Additional observations from a re-analysis of the deposited data

How the results depend on the processing

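The 9 genes kept a count of 0 called under every alternative. Over all genes edgeR called 1 gene, DESeq2 405, edgeR without a filter 155, and edgeR with the replicate block 0, also with the length offset and replicate block, and 0 to 782 with a mouse left out. Same-numbered ovaries correlated at 0.07, 0.11 and -0.26 in their deviations from the group means, and M1 mice 1 and 3 both correlated best with Control mouse 1. No pairing by replicate number was seen, but with 3 mice per group these values cannot decide whether there was one. Other genes of the pathway called were 0, but 5 by DESeq2 and 0 to 7 with a mouse left out. The cause was not tested in any case. The log2 fold change of Star turned to 0.0595 by limma-voom, 0.0442 with the replicate block and 0.069 with the length offset and replicate block, and ran between -0.86 and 0.19 with a mouse left out. That of Nr5a2 turned to -0.15 on both TPM scales, where the median of all genes was -0.16 or -0.18, and ran between -0.0839 and 0.19 with a mouse left out. Those of Cyp11a1 (-0.14 to 0.65) and Por (-0.49 to 0.0523) changed sign only with a mouse left out, and the other 5 genes kept theirs. With a mouse left out the log2 ratio difference, M1 minus Control, ran between -0.23 and 0.67 for Cyp11a1 to Star, -0.0751 and 0.62 for Hsd3b1 to Cyp11a1, -0.34 and 0.17 for Fdxr to Fdx1, and -0.0044 and 0.42 for Nr5a2 to Nr5a1. Ratios of FPKM equal those of TPM by construction, because within a library the measures differ by a common factor, so they are no independent check. Spearman's rho of Fdxr and Por was -0.0286 against an r of 0.64, and the r of Nr5a1 and Nr5a2 was 0.0744 in log2 TPM. No pair of the 36 passed after adjustment in TPM, with the length offset or by rho. With 3 mice per group the exact tests of M1 against Control could not go below p = 0.1.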

Other observations

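Values of 3 enzymes that use progesterone, its precursors or its products follow, chosen after they were seen. Akr1c18 differed between 959.0 and 13670 TPM in M1 ovaries and between 8.97 and 6510 TPM in Control ovaries, with a log2 fold change of 0.93 (SE 1.68, edgeR adjusted p = 0.810). Cyp17a1, the theca cell enzyme that leads to androgens, had 359.5, 49.1 and 158.8 TPM in M1 mice 1 to 3, against 76.7, 619.8 and 35.4 TPM in Control mice 1 to 3, and its log2 fold change was -0.28 (SE 1.05, edgeR adjusted p = 0.911). Cyp19a1, the aromatase of granulosa cells, had 52.4, 8.98 and 37.7 TPM in M1 mice 1 to 3, against 12.3, 19.4 and 17.7 TPM in Control mice 1 to 3, and its log2 fold change was 1.13 (SE 0.51, edgeR adjusted p = 0.315). M1 mouse 2, the highest ovary for Akr1c18, was the lowest for Cyp19a1.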
